A study of Mus musculus with 44 samples.

Results

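The genes described here encode the cytosolic chaperonin CCT, also called TRiC, and the mitochondrial chaperonin: Tcp1, Cct2, Cct3, Cct4, Cct5, Cct7 and Cct8, which are CCT subunits, and Hspd1 and Hspe1, which encode the mitochondrial Hsp60 and its lid Hsp10. They were chosen by symbol, so that every probe set annotated to one of these 9 symbols was taken. The 9 genes are 9 of 12393 genes with a probe set of a single symbol. They were measured by 24 probe sets, and 9 of 9 passed the filter on low values that left 8721 genes.

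CCT is a double-ring complex in which each subunit is encoded by its own gene, and it folds newly made actin, tubulin and a number of proteins with WD repeats. Hsp60 forms a chamber in the mitochondrial matrix that Hsp10 closes, and proteins that have just been imported fold inside it. MYC is a transcription factor that is known to raise genes of growth and protein synthesis, and genes of both chaperonins have been described among its targets.

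All 44 samples came from Eµ-myc mice, in which an immunoglobulin heavy chain enhancer drives a Myc transgene in cells of the B lineage, so that no sample lacks the transgene. There were 43 samples of lymphoma tumor and 1 spleen, and total RNA from each was hybridised to 1 Affymetrix mouse array. Lymphoma had been frozen as tissue or as pellets of dissociated cells, and spleen as pellets, with no route given for each lymphoma, and the labels give no treatment, age, sex or statement that the spleen was free of lymphoma. Nothing in them states that every lymphoma is from a separate animal, so that p-values measure the spread between these samples. Lymphomas are numbered 1 to 43 here in order of deposit.

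Values are log2 expression values made by RMA, 1 per probe set. The column medians fell into sets, 36 lymphomas with the lower title numbers at 6.22 to 6.46 and 7 lymphomas with the higher title numbers at 6.86 to 6.96, with the spleen, whose title number is the last, at 7.02. Levels were therefore compared within a set, and set 1 and set 2 below name these groups. On the list of 7 pan B cell markers the mean level was 7.01 to 10.62 in set 1, 9.07 to 11.57 in set 2 and 9.55 in the spleen. Lymphomas 9, 13, 32 and 40 had the 4 lowest pan B cell scores after centring on the set, and lymphoma 13 also had the highest macrophage and stromal scores. Each count of the 9 genes in the main limma fits was repeated without these 4. Every sample is bulk RNA, in which fewer cells of a type and less RNA per cell cannot be told apart.

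Promoter windows of 300 bases, from 250 before to 50 after the start of transcription, were taken from the RefSeq table for GRCm38.p6, which held 11 windows for 8 of the 9 genes. The first 2 windows below are shown because Hspd1 and Hspe1 lie head to head on chromosome 1. The last 2 are of Cct8 and Cct7, which of the 9 genes had the steepest and flattest slope on Myc by brightest probe set. Capitals mark CACGTG, the E-box that MYC binds with its partner MAX, the heat shock element, which is GAANNTTC followed after any 2 bases by GAA, or CCAAT, each searched on both strands.
Hspd1, chr1:55088194-55088493, minus strand: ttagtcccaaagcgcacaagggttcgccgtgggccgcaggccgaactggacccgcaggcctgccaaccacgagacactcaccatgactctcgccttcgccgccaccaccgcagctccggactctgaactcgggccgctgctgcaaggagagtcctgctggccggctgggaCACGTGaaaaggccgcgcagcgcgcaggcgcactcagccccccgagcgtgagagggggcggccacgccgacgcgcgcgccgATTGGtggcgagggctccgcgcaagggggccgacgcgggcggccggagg
Hspe1, chr1:55087898-55088197, plus strand: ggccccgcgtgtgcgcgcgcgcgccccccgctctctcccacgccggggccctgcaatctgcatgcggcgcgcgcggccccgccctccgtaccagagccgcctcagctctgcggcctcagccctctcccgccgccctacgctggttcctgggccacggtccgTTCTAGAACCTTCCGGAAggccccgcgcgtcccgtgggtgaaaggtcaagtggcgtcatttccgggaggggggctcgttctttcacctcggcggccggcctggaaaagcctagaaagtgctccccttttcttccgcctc
Cct8, chr16:87495820-87496119, minus strand: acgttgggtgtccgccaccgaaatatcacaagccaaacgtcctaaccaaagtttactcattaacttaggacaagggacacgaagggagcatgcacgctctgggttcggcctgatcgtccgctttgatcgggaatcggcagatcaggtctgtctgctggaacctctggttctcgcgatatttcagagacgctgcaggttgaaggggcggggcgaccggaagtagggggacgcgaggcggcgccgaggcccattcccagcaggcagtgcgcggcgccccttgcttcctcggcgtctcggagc
Cct7, chr6:85451255-85451554, plus strand: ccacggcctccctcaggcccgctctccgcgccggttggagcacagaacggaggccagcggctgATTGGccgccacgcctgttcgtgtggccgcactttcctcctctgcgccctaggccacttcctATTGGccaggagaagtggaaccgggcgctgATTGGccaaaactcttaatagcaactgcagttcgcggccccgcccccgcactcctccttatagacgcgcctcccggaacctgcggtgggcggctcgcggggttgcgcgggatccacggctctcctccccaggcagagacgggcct

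CACGTG was found in 1 of the 11 windows, that of Hspd1 shown above, 80 bases before the start. It was found in 7.15% of all 32851 windows of that length. The full heat shock element, which the factor HSF1 binds, was found in 2 of the 11 windows and in 0.603% of all windows. These are the Hspe1 window shown, where the first of 2 overlapping matches begins 89 bases before the start, and a second Hspd1 window at chr1:55087883-55088182. The 2 windows share 285 bases on opposite strands, so that the matches are the same bases, read on each strand. The shorter core GAANNTTC, which is part of that element, was found in 3 windows, those 2 and a window of Cct2, against 7.86% of all windows. CCAAT was found in 4 windows, of Tcp1, Cct3, Cct7 and Hspd1, against 37.4% of all windows, and Cct7 held 3 matches. The Cct8 window held none of these letters. A match is a description of the letters and not of a bound site.

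On the probe set used for each, all 9 genes gave bright signals that varied less among the lymphomas than those of most genes. Each gene was represented by its brightest probe set, whose mean in set 1 was between 11.53 and 12.44 (n = 36). Levels of different probe sets are not set against each other here. The SD over the 43 lymphomas, centred on the set, was 0.14 for Cct2 and Cct7 and up to 0.27 for Cct8, against a median of 0.33 over all genes kept. Cct8 stood at the percentile 30.6 of all genes by SD, and Cct2 at 1.56. Other probe sets could vary more, and over those of Cct3 the SD ran from 0.16 to 0.49. On the linear scale the most expressing lymphoma stood above the least by 1.502-fold for Tcp1 and by 2.59-fold for Hspd1, the extremes among the 9.

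Tcp1, the founding subunit of CCT, lay in set 1 between 11.31 and 11.90 with a median of 11.67. In set 2 it lay between 12.41 and 12.66 with a median of 12.55. Lymphoma 13 was the lowest and lymphoma 20 the highest after centring. Cct2 lay between 12.02 and 12.76 in set 1 with a median of 12.47. In set 2 it lay between 13.19 and 13.46 with a median of 13.38. Lymphoma 30, which also had the lowest Myc, was the lowest for Cct2. Cct3 lay between 11.40 and 12.42 in set 1 with a median of 11.90. In set 2 it lay between 12.56 and 13.03 with a median of 12.80. Lymphoma 12, second of the 43 by Myc, was the highest for Cct3.

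Cct4 lay between 11.35 and 12.01 in set 1, with a median of 11.76, and between 12.25 and 12.68 in set 2, with a median of 12.57. Its lowest lymphoma was number 2 and its highest number 15. Cct5 lay between 11.63 and 12.60 in set 1, with a median of 12.06, and between 12.64 and 13.28 in set 2, with a median of 13.17. Its lowest lymphoma was number 39, which ranked 42 of 43 by Myc, and its highest number 10. Cct7 lay between 11.54 and 12.22 in set 1, with a median of 11.89, and between 12.55 and 12.84 in set 2, with a median of 12.75. Cct8 lay between 10.86 and 12.11 in set 1, with a median of 11.58, and between 12.04 and 12.81 in set 2, with a median of 12.38. Lymphoma 28 was the highest for Cct7 and the lowest for Cct8, so that the order of the lymphomas was not shared between these subunits.

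Hspd1, the mitochondrial Hsp60 gene, lay between 11.55 and 12.92 in set 1 with a median of 12.23. In set 2 it lay between 12.68 and 13.37 with a median of 13.08. Hspe1, the gene of its Hsp10 partner, lay between 11.76 and 12.63 in set 1 with a median of 12.12. In set 2 it lay between 12.48 and 13.08 with a median of 12.88. Lymphoma 30 was the lowest and lymphoma 29 the highest for both.

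The genes moved together only in part. All 36 pairs had a positive Pearson r over the 43 lymphomas, with a median of 0.351, from 0.0646 for Cct7 with Cct8 to 0.679 for Tcp1 with Cct2. Over all pairs of kept genes the median r was 0.0038. The genes of a lymphoma were read from the same array, with the same scaling and cell make-up, so these values are a description. The 21 pairs of CCT genes had a median r of 0.353, and the 14 pairs of a CCT gene with a mitochondrial one had 0.340. Hspd1 and Hspe1, which lie head to head as described above, had an r of 0.558. For comparison, pairs of probe sets of a single gene were taken. Their median r was 0.786 for the 15 pairs of Cct3, 0.770 for the 3 pairs of Cct2 and 0.704 for the 15 pairs of Cct4. It was 0.936 for the pair of Hspe1, 0.660 for that of Cct7 and 0.292 for that of Cct8, whose second probe set lay near the floor at a mean of 3.18 in set 1.

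**Figure D1:**
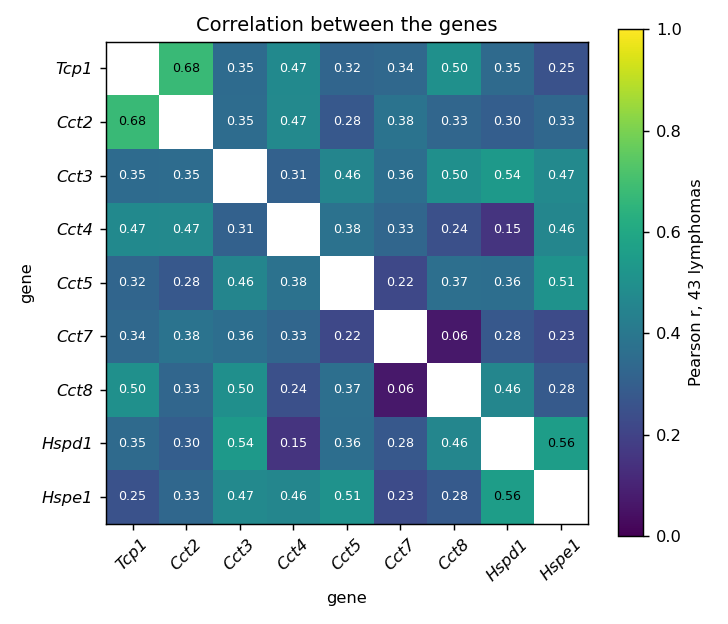
Pearson r of each pair of the 9 genes over 43 lymphomas after centring on the set, as the number and colour of each square. Every pair is positive, Tcp1 with Cct2 is the highest at 0.68 and Cct7 with Cct8 the lowest at 0.06.

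The mean of the 9 centred genes had an SD of 0.126 over the lymphomas. It was lowest in lymphoma 30 (-0.37), which ranked 43 of 43 by Myc, with 0 of 9 genes above the set mean. Lymphoma 13 (-0.29) was next, with only Hspd1 above the set mean, and then lymphoma 39 (-0.26), again with 0 of 9 above. The mean was highest in lymphoma 12 (0.23), with 9 of 9 genes above, followed by lymphoma 29 (0.21), with 5 of 9 above. In all, 2 lymphomas had every gene above the set mean and 2 had every gene below.

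The main question put to these genes was how they relate to Myc, the gene that the transgene carries. The Myc probe set does not tell the transgene from the endogenous gene in these values. Myc lay between 9.15 and 11.44 in set 1, with a median of 10.54, and between 9.90 and 11.78 in set 2, with a median of 11.22. Its SD after centring was 0.57, over 4 times that of Cct2.

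With the set as a covariate, 6 of the 9 genes rose with Myc: Cct8, Hspd1, Cct3, Cct5, Cct2 and Tcp1. In the same limma fit 26.4% of 8720 genes rose with Myc and 16.9% fell, at an adjusted p under 0.05. No gene of the 9 fell. The median slope of the 9 genes was 0.12 log2 units per log2 unit of Myc, and that of all genes was 0.03. The slope of Cct8 equals 1.20-fold per log2 unit of Myc and that of Tcp1 equals 1.08-fold.

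By the brightest probe sets, the steepest slope of a CCT subunit was that of Cct8, at 0.27 ± 0.06 (SE, limma adjusted p = 0.000424). Cct3 followed at 0.21 ± 0.05 (limma adjusted p = 0.000504). The other probe sets of Cct3 had slopes from 0.11 ± 0.05 to 0.43 ± 0.12, so that this order rests on the probe set used. In the plots against Myc Cct8 and Cct3 were low in most lymphomas of low Myc and high in lymphoma 12. The points overlapped widely in between. Cct5 rose by 0.13 ± 0.05 (limma adjusted p = 0.0337), Cct2 by 0.12 ± 0.03 (limma adjusted p = 0.00244) and Tcp1 by 0.10 ± 0.04 (limma adjusted p = 0.0283). Hspd1 rose by 0.21 ± 0.06 (limma adjusted p = 0.00228), as much as Cct3.

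Cct4, Cct7 and Hspe1 did not pass. The slope of Cct7 was 0.00 ± 0.04 (limma adjusted p = 0.989) with an approximate 95% interval of -0.07 to 0.08. That of Cct4 was 0.05 ± 0.04 (limma adjusted p = 0.374), with an interval of -0.04 to 0.13. That of Hspe1 was 0.07 ± 0.05 (limma adjusted p = 0.276), with an interval of -0.03 to 0.18. These intervals hold slopes as large as that of Tcp1 for Cct4 and Hspe1, and differences between genes in slope were not tested.

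**Figure D2:**
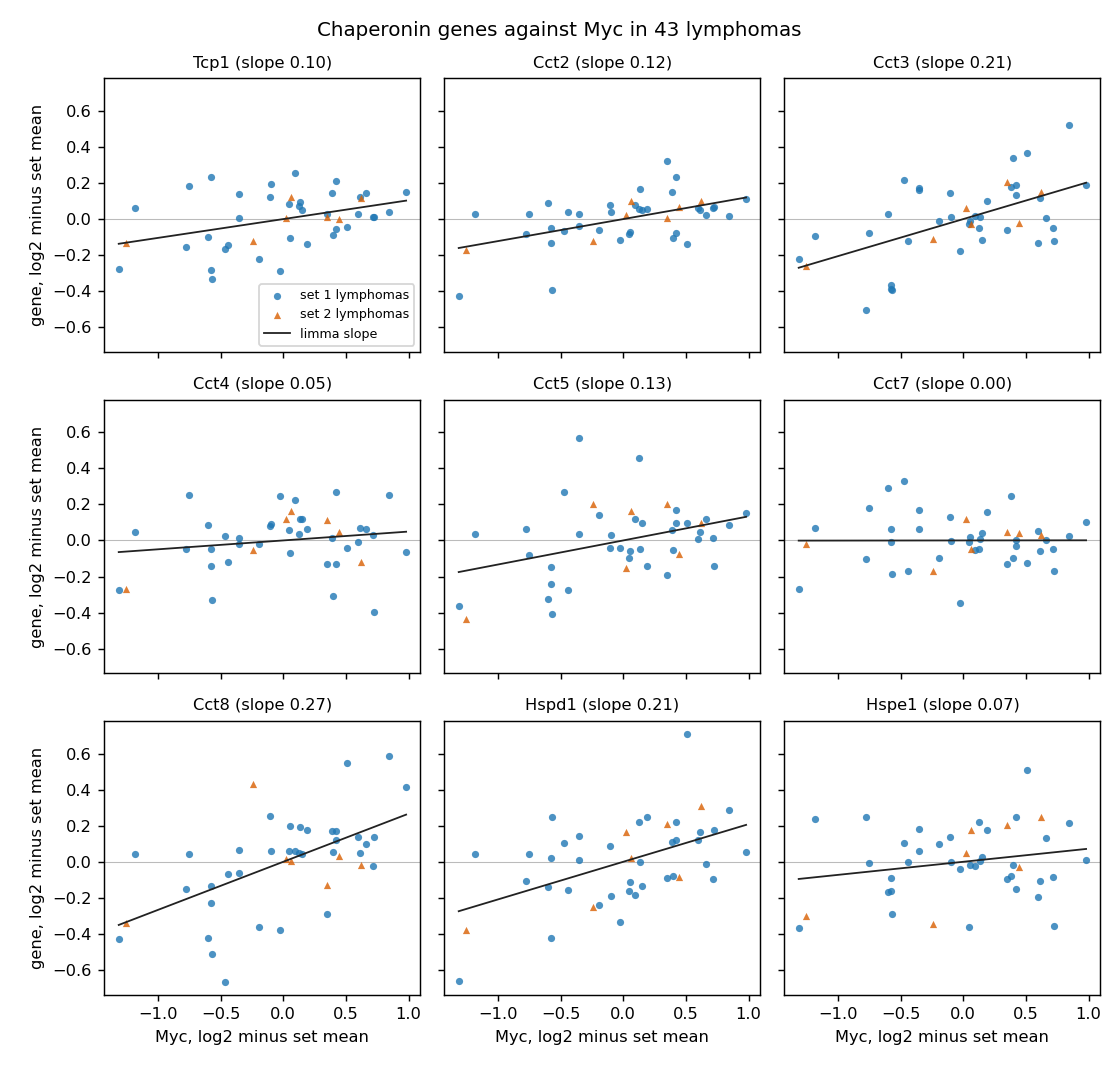
Each panel plots 1 gene, as log2 expression minus the set mean, against Myc on the same scale in 36 set 1 and 7 set 2 lymphomas, with the limma slope as a line. Cct8, Hspd1 and Cct3 have the steepest lines, at 0.27, 0.21 and 0.21, and the line of Cct7 is flat at 0.00.

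Correlations on centred values gave the same 6 genes by Pearson r and 4 by Spearman rho, against 26.5% and 23.2% of all genes, with 100000 permutations within sets and adjustment over all genes. Cct8 had an r of 0.571 (permutation p = 7e-05, adjusted p = 0.000523) and a rho of 0.564 (permutation p = 0.00011, adjusted p = 0.00111). Cct3 had an r of 0.568 (permutation p = 7e-05, adjusted p = 0.000523) and a rho of 0.482 (permutation p = 0.00121, adjusted p = 0.00624). Hspd1 had an r of 0.507 (permutation p = 0.00048, adjusted p = 0.00233) and a rho of 0.480 (permutation p = 0.00142, adjusted p = 0.00703). These 3 genes also had the steepest slopes of the 9 in the main limma fit. Cct2 had an r of 0.515 (permutation p = 0.00043, adjusted p = 0.00214) and a rho of 0.453 (permutation p = 0.00298, adjusted p = 0.0121). Cct5 and Tcp1 passed by r, at 0.374 and 0.393, but not by rho, at 0.343 (adjusted p = 0.0636) and 0.341 (adjusted p = 0.0668). The remaining genes passed by neither, with an r of 0.178 for Cct4, 0.210 for Hspe1 and 0.003 for Cct7.

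Lymphomas 30 and 39 were the farthest from the median of Myc, at -1.31 and -1.25, and both were low for most of the 9 genes. Without them 2 of the 9 genes rose with Myc, Cct3 and Cct8, against 17.8% of all genes. The slope of Cct3 was then 0.21 ± 0.06 and that of Cct8 0.26 ± 0.07, with limma adjusted p = 0.004 and 0.00636. The r of Cct3 was then 0.525 and that of Cct8 0.4999. The r of Hspd1 fell to 0.347, that of Cct2 to 0.364, that of Tcp1 to 0.292 and that of Cct5 to 0.199. The calls of these 4 genes were lost with both lymphomas left out, and those of Hspd1 and Cct2 held with either alone left out. Leaving out 1 lymphoma, the slope of Tcp1 was 0.088 without lymphoma 30 (limma adjusted p = 0.0924) and 0.104 without lymphoma 39 (limma adjusted p = 0.0513), against 0.10 with all lymphomas. The call of Cct5 was lost without lymphoma 13, 27, 30 or 39 alone, with slopes between 0.10 and 0.12. Without lymphomas 9, 13, 32 and 40 the count was 5 of 9, against 25.8% of all genes.

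T cell and macrophage markers moved with Myc in the opposite direction. On the list of T cell markers 10 of 11 fell with Myc, and on that of macrophage markers 8 of 14 did. The mean T cell level was 5.31 to 8.57 in set 1 and 6.25 to 8.70 in set 2, and the mean macrophage level 5.21 to 9.67 and 6.24 to 9.60. The T cell score had an r of -0.67 with Myc and -0.37 with the mean of the 9 genes, and the macrophage score -0.45 and -0.62. Lymphomas 30 and 39 ranked 3 and 4 of 43 by T cell score. With both scores held fixed, only Hspd1 of the 9 genes rose with Myc, at 0.26 ± 0.08 (limma adjusted p = 0.0381), against 4.45% of all genes. The others did not pass. Cct8 had a slope of 0.22 ± 0.08 (limma adjusted p = 0.0925) and Hspe1 of 0.17 ± 0.06 (limma adjusted p = 0.0843). Cct5 had a slope of 0.12 ± 0.07 (limma adjusted p = 0.297), Cct2 of 0.07 ± 0.04 (limma adjusted p = 0.293) and Cct4 of -0.01 ± 0.05 (limma adjusted p = 0.926). That of Cct3 was 0.11 ± 0.06 (limma adjusted p = 0.255), that of Tcp1 0.02 ± 0.05 (limma adjusted p = 0.893) and that of Cct7 -0.09 ± 0.05 (limma adjusted p = 0.300). Mature B cell markers also moved against Myc, with 5 of 9 falling and 1 rising. Their mean had an r of -0.61 with Myc and -0.39 with the mean of the 9 chaperonin genes. It was not held fixed in any fit.

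**Figure D3:**
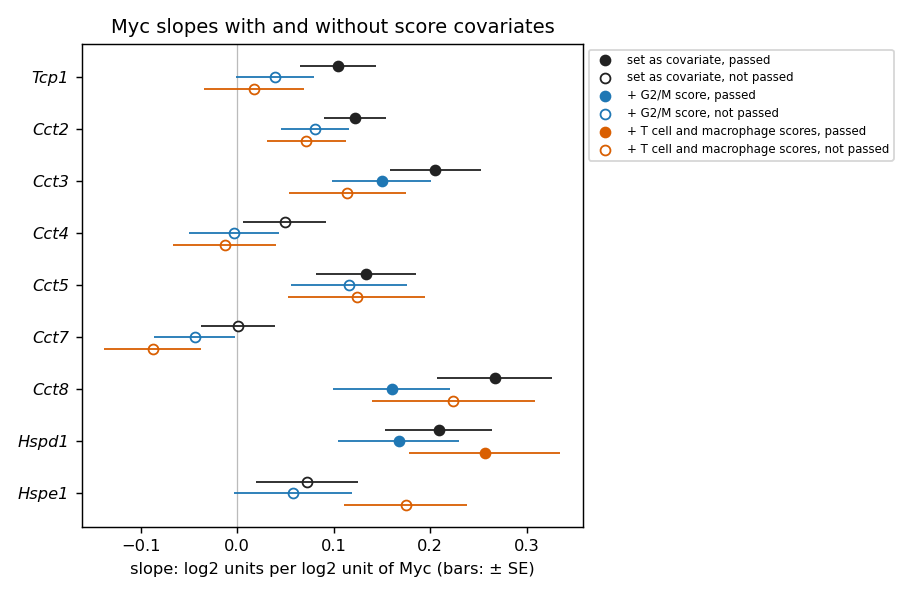
Slope on Myc of each gene with its SE, in log2 units per log2 unit of Myc, with the set alone as covariate, with the G2/M score added, and with the scores of T cells and macrophages added. Filled points passed an adjusted p of 0.05, which 6, 3 and 1 of the 9 genes did in these fits.

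Within set 1 alone 4 of the 9 genes rose with Myc, Cct2, Cct3, Cct8 and Hspd1, against 22% of all genes. Within the 7 lymphomas of set 2 the count was 0, against 0.195%. All 9 slopes there were above 0, from 0.05 ± 0.07 for Cct7 to 0.33 ± 0.10 for Hspd1. The median slope of all genes there was also above 0, at 0.05. In that set 4 of the 9 genes had an unadjusted limma p under 0.05, Cct2, Cct3, Hspd1 and Hspe1, as did 12.7% of all genes with a slope above 0. The difference in slope between the sets, tested as an interaction in limma, passed for 0 of 9 genes at an adjusted p under 0.05, against 0.161% of all genes. At an unadjusted p under 0.05 it also passed for 0 of 9, and the share of all genes at that threshold is not given here. The nearest was Hspe1, with a slope of 0.29 in set 2 and 0.03 in set 1, a difference of 0.27 ± 0.14 (limma p = 0.0565, adjusted p = 0.9996).

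The probe sets of a gene mostly gave the same picture. Over every probe set, 11 of the 24 rose with Myc, against 21.5% of 20379 probe sets in that limma fit. For Cct3, 5 of 6 probe sets rose, with slopes from 0.12 ± 0.04 to 0.43 ± 0.12. For Cct2, 2 of 3 rose. For Cct4, 0 of 6 rose, with slopes between -0.03 and 0.05, for Cct7 0 of 2, and for Hspe1 0 of 2. Tcp1, Cct5 and Hspd1 each have 1 probe set, which rose, and of the 2 for Cct8 that near the floor did not pass.

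The genes were next set against a score of 22 mitotic genes of the G2/M phase, none of which is a chaperonin gene. The score had an r of 0.490 with Myc and 0.632 with the mean of the 9 genes. Here too 6 of the 9 genes rose, Tcp1, Cct2, Cct3, Cct4, Cct8 and Hspd1, against 26.1% of all genes that rose and 15.3% that fell. Cct8 had the steepest slope, at 0.56 ± 0.11 log2 units per unit of the score (limma adjusted p = 9.0e-05). Cct3 had a slope of 0.36 ± 0.09 (limma adjusted p = 0.00239), Hspd1 of 0.32 ± 0.11 (limma adjusted p = 0.0214) and Tcp1 of 0.29 ± 0.07 (limma adjusted p = 0.000834). The genes that did not pass were Cct5 (0.18 ± 0.10), Cct7 (0.13 ± 0.07) and Hspe1 (0.11 ± 0.10). The call of Cct4 (0.20 ± 0.08, limma adjusted p = 0.0346) did not hold without lymphoma 12, 13, 15, 30 or 39 alone, with slopes from 0.158 to 0.185. That of Hspd1 did not hold without lymphoma 30 or 39, with slopes of 0.250 and 0.278. Without lymphomas 9, 13, 32 and 40 the count was 5, against 22.9% of all genes.

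Myc and the G2/M score were also fitted together. With the score held fixed, 3 of the 9 genes rose with Myc, Cct3, Cct8 and Hspd1, against 15.3% of all genes. Their slopes were 0.15 ± 0.05, 0.16 ± 0.06 and 0.17 ± 0.06. With Myc held fixed, 2 of the 9 rose with the score, against 13.9% of all genes. These were Cct8, at 0.41 ± 0.12 (limma adjusted p = 0.00942), and Tcp1, at 0.25 ± 0.08 (limma adjusted p = 0.0175). With the scores of T cells and macrophages held fixed, Cct8 alone rose with the G2/M score, against 4.97% of all genes. In these fits Cct8 passed with each of the 2 measures while the other was held, which no other gene of the 9 did.

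No gene of the 9 followed the stage of the B cells, measured as the mature minus the precursor B cell score. In the limma fit 0 of 9 rose and 0 of 9 fell, against 14% and 17.1% of all genes. At an unadjusted p under 0.05, 2 of 9 fell, Cct3 (-0.03 ± 0.02 per unit of the score, adjusted p = 0.112) and Cct8 (-0.05 ± 0.02, adjusted p = 0.0787), against 23.6% of all genes. Both passed without lymphoma 13, Cct3 also without 43, and Cct8 also without 28 or 29. Without lymphomas 9, 13, 32 and 40 the count falling was 3, against 22.9% of all genes.

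The spleen was then compared with the lymphomas. All 9 genes lay lower in the spleen than in each of the 7 lymphomas of its set, which 31% of all genes did, while 19.6% lay above all of them. Hspe1 stood at 11.88 in the spleen, and between 12.48 and 13.08 in those lymphomas. Cct2 stood at 12.57, and between 13.19 and 13.46 in the lymphomas. Cct8 stood at 11.59, against 12.04 to 12.81, and Cct3 at 12.05, against 12.56 to 13.03. Tcp1 stood at 12.13, Cct4 at 11.96, Cct5 at 12.54 and Cct7 at 12.36, each below its lowest lymphoma at 12.41, 12.25, 12.64 and 12.55. Hspd1 stood at 12.68 and was level, to 2 decimals, with lymphoma 39, its lowest. Myc stood at 10.09 in the spleen, below 6 of the 7 lymphomas and above lymphoma 39.

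**Figure D4:**
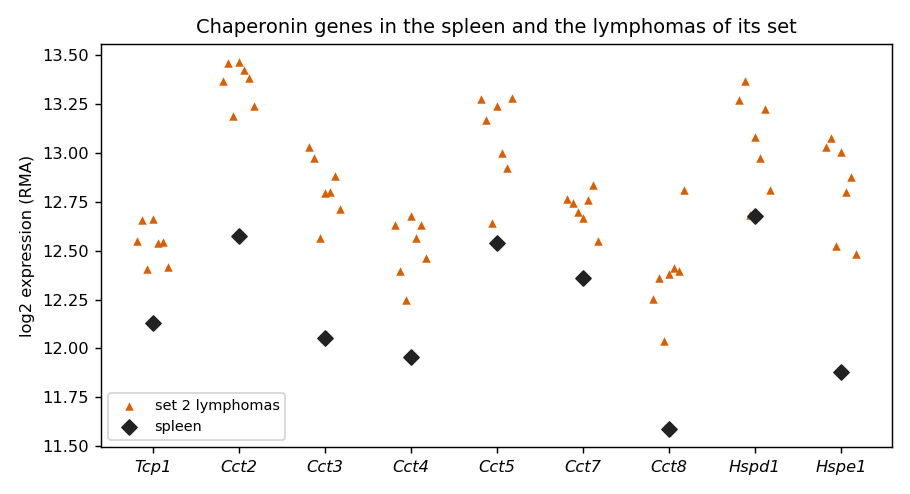
Log2 expression of each gene in the spleen (diamond) and in the 7 lymphomas of set 2 (triangles). The spleen lies below every lymphoma for all 9 genes, by the widest gap for Cct2 and by almost nothing for Hspd1.

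With the spread taken from the 43 lymphomas, 4 of the 9 genes were lower in the spleen by limma, Hspe1, Cct2, Cct3 and Cct4, against 5.79% of all genes that were lower and 7.60% that were higher. With 1 spleen the variation between spleens is unknown, and the p-values measure the spread of the lymphomas only. The difference was -0.95 ± 0.21 log2 units for Hspe1 (SE, limma adjusted p = 0.00138), or 1.93-fold, and -0.79 ± 0.15 for Cct2 (limma adjusted p = 0.000115), or 1.72-fold. For Cct3 it was -0.77 ± 0.22 (limma adjusted p = 0.0151) and for Cct4 -0.56 ± 0.17 (limma adjusted p = 0.0239). The median over the 9 genes was -0.56, and that over all genes -0.16. Cct8 had as large a difference as Cct2, at -0.79 ± 0.28, but did not pass (limma adjusted p = 0.0562). Cct5, Tcp1, Cct7 and Hspd1 had differences between -0.53 and -0.36 that did not pass, and the interval for Hspd1 ran from -0.87 to 0.11. Without lymphoma 12, 13, 28, 29, 30 or 39 alone Cct8 passed too, as did Cct5 without lymphoma 39. Without lymphomas 9, 13, 32 and 40 the count was 5, against 7.43% of all genes. With equal column medians it was 7, against 8.89%, and with array weights 8, against 15.4%. Without the set as a covariate it was 0, against 0.470%, and 6 of the 9 differences turned positive.

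In the main fits Hspe1 had the larger difference in the spleen and the smaller slope on Myc, and Hspd1 the reverse. The intervals of Hspe1 and Hspd1 overlapped in both fits, and these differences between the genes were not tested. In set 2 alone their slopes on Myc were 0.29 ± 0.10 and 0.33 ± 0.10. Both probe sets of Hspe1 were lower in the spleen, at -0.95 and -0.88. Over every probe set 9 of 24 were lower, against 4.26% of 20380 probe sets, among them 3 of 3 for Cct2 and 2 of 6 for Cct3. For Cct4 1 of 6 was lower, and the other probe sets had differences between -0.47 and 0.02. With the mean of a gene's probe sets the genes lower in the spleen were Cct2, Cct7 and Hspe1, against 6.03% of all genes, and Cct3 and Cct4 did not pass.

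The spleen array held strong signal of other cell types. The mean level of the 12 erythroid markers was 12.05 in the spleen, against 5.64 to 6.07 in the set 2 lymphomas, and 11 of 12 were higher by limma. The 10 neutrophil markers had a mean of 13.08, against 5.71 to 9.91, and 8 of 10 were higher. Macrophage markers had 9.76, against 6.24 to 9.60, with 4 of 14 higher, and stromal and endothelial markers 9.21, against 5.75 to 6.70, with 4 of 12 higher. Pan B cell markers had 9.55, against 9.07 to 11.57, and 0 of 7 passed by limma. At an unadjusted p under 0.05 the count was 1 of 7, and the share of all genes at that threshold is not given here. Mature B cell markers had 7.55, against 7.63 to 10.17, and 0 of 9 passed by limma. T cell markers had 6.39, against 6.25 to 8.70, and 0 of 11 passed. With the scores of T cells and macrophages held fixed, Cct2, Cct3 and Hspe1 were lower in the spleen, against 4.23% of all genes. The part of erythroid, neutrophil and stromal cells in the lower chaperonin levels was not tested. With 1 spleen, erythroid and neutrophil content cannot be told apart from the tissue, since both means lay above every set 2 lymphoma. With Myc held fixed, 2 of the 9 genes were lower in the spleen, Hspe1 (-0.87 ± 0.22) and Cct2 (-0.66 ± 0.13), against 3.06% of all genes. With the G2/M score held fixed the count was 8, against 14.1%, and Hspd1 was the exception. Fitted on the 8 arrays of set 2 alone the count was 3, against 2.69%, Cct2, Cct3 and Hspe1.

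Other chaperone genes were described from lists chosen by function, and their counts stand against the 26.4% of all genes that rose with Myc and the 16.9% that fell. With the scores of T cells and macrophages held fixed, 4.45% of all genes rose and 2.94% fell. These shares are of all genes tested, and the share of called genes that kept their call was not counted. In that fit 4 of the 55 genes called on these lists were called in the same direction, Uri1, Tuba1a, Ccne1 and Tbca. Each other call on Myc given here from these lists was then lost. The one further CCT subunit that passed the filter, Cct6a, rose with Myc by 0.16 ± 0.04 (limma adjusted p = 0.00269). Its testis relative Cct6b did not pass the filter. Prefoldin hands actin and tubulin chains to CCT, and 4 of its 10 genes and cofactors rose with Myc while 1 fell. The prefoldin-like Uri1 rose by 0.48 ± 0.06 (limma adjusted p = 1.05e-07), and the prefoldin subunits Pfdn2 and Pfdn6 by 0.28 ± 0.07 and 0.25 ± 0.07. Of 15 substrates of CCT, 2 rose and 4 fell. The tubulin genes Tubb6 and Tuba1a had slopes of -1.22 ± 0.23 and -0.79 ± 0.15, and the actin gene Actg1 of -0.24 ± 0.06. Of 6 tubulin cofactors, which act on tubulin after CCT, Tbcd rose (0.14 ± 0.05) and Tbca and Tbcb fell (-0.36 ± 0.07 and -0.16 ± 0.05).

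The mitochondrial lists held the helpers of Hspd1 and Hspe1 in protein import and folding. Of 14 genes of the mitochondrial Hsp70 system and proteases 10 rose with Myc and 1 fell, with a median slope of 0.20. The protease Lonp1 rose by 0.43 ± 0.08, Trap1, the mitochondrial Hsp90, by 0.39 ± 0.08, and Clpx, the unfoldase of the matrix protease ClpXP, by 0.27 ± 0.05. Of 14 genes of mitochondrial import 10 rose and 0 fell, also with a median of 0.20. The translocase genes Timm8a1, Timm9 and Timm50 rose by 0.45 ± 0.07, 0.42 ± 0.08 and 0.40 ± 0.07. The median slope of these lists was above that of the 9 chaperonin genes, and the difference was not tested.

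Chaperones of the cytosol and of the secretory pathway were taken last. Of 19 genes of the cytosolic Hsp70 and Hsp90 system 9 rose and 0 fell. The ribosome-bound J protein Dnajc2 rose by 0.39 ± 0.07, the AAA protein Ruvbl2 by 0.27 ± 0.06, and Bag1, an exchange factor for Hsp70, by 0.23 ± 0.05. Of 6 heat shock response genes 0 rose and 0 fell by limma. At an unadjusted p under 0.05 the count was also 0 of 6, and the share of all genes at that threshold is not given here. The slopes of Hspb1, Hspa1b and Hspa1a were -0.45 ± 0.24, -0.80 ± 0.47 and -0.38 ± 0.25. Of 12 chaperones of the endoplasmic reticulum 0 rose and 10 fell, with a median slope of -0.44. Hspa5, the Hsp70 known as BiP, had -0.56 ± 0.10 (limma adjusted p = 1.83e-05), the lectin chaperone Calr -0.46 ± 0.08 and Hyou1, a relative of Hsp110, -0.40 ± 0.08.

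With the scores of T cells and macrophages held fixed, Hspa5 had a slope of -0.16 ± 0.11 (limma adjusted p = 0.397) and Tubb6 one of -0.36 ± 0.23 (limma adjusted p = 0.354). Pfdn6 then had a slope of 0.04 ± 0.08 (limma adjusted p = 0.845), Lonp1 of 0.17 ± 0.07 (limma adjusted p = 0.140) and Timm8a1 of 0.27 ± 0.09 (limma adjusted p = 0.0649). The part of T cells and macrophages in the counts of these lists was not tested beyond this fit.

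**Figure D5:**
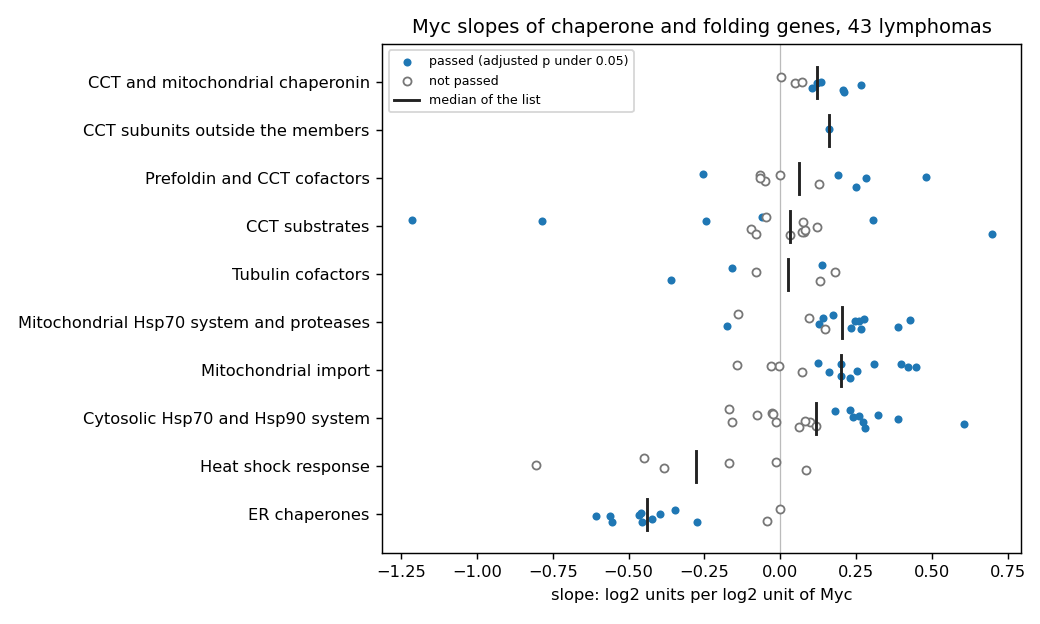
Slope on Myc of each gene in 10 groups of chaperone and folding genes over 43 lymphomas, in log2 units per log2 unit of Myc, with the vertical offset within a group drawn at random. Filled points passed an adjusted p of 0.05 and bars mark medians, which run from -0.44 for the chaperones of the endoplasmic reticulum to 0.20 for the mitochondrial lists.

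The same lists were counted in the spleen, where 5.79% of all genes were lower and 7.60% higher. Of the import genes 5 of 14 were lower and 0 higher, with Timm8a1 at -1.15 ± 0.39 (limma adjusted p = 0.0400). Of the cytosolic Hsp70 and Hsp90 system 4 of 19 were lower, with Dnajc2 at -1.46 ± 0.36 (limma adjusted p = 0.0035), and of prefoldin and its cofactors 3 of 10, with Uri1 at -1.16 ± 0.37 (limma adjusted p = 0.0297). Of the mitochondrial Hsp70 system 2 of 14 were lower. Among the tubulin cofactors 1 of 6 was lower, and among the heat shock response genes 0 of 6 were lower or higher. Among the substrates of CCT 2 of 15 were higher and 0 lower, with a median difference of 0.01. Cct6a did not pass, at -0.37 ± 0.20 (limma adjusted p = 0.208). Of the chaperones of the endoplasmic reticulum 1 of 12 was higher and 0 lower, and their median difference was 1.02.

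The genes whose pattern was most like the mean of the 9 were named by Pearson r over the 43 lymphomas. Cacybp was first, at 0.865, followed by Xpo5 (0.852), Fkbp4 (0.847), Gfm1 (0.837) and Nudc (0.820). Cacybp binds the calcium-binding protein S100A6 and a ubiquitin ligase, Xpo5 exports microRNA precursors from the nucleus, Fkbp4 is a cochaperone of Hsp90, Gfm1 is a mitochondrial elongation factor and Nudc is a cochaperone of Hsp90 linked to dynein. The next were Exosc7 (0.816), Ppif (0.809), Zmynd19 (0.808), Mrpl38 (0.795) and 3110009E18Rik (0.788). Their slopes on Myc ran from 0.19 ± 0.07 for Mrpl38 to 0.59 ± 0.11 for 3110009E18Rik, which is a description only, since the mean they were chosen by had itself an r of 0.588 with Myc. In the spleen Cacybp, Nudc, Exosc7 and 3110009E18Rik were lower, at -0.90, -0.94, -1.002 and -1.72.

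Each gene alone had another nearest pattern. Tcp1 was nearest to Hspa4 (0.721), an Hsp110 that serves Hsp70, Cct2 to Zfp593 (0.733), and Cct3 to Gatb (0.866), a subunit of a mitochondrial amidotransferase. Cct4 was nearest to Mplkip (0.743), Cct5 to Adsl (0.848), an enzyme of purine synthesis, and Cct7 to Tubg1 (0.724), which encodes gamma-tubulin. Cct8 was nearest to Rfc4 (0.823), a subunit of the clamp loader of DNA replication, Hspd1 to Naa15 (0.802), a subunit of an N-terminal acetyltransferase, and Hspe1 to 9130401M01Rik (0.687). No chaperonin gene was the nearest pattern of another.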

How the data were processed

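RNA of 43 lymphomas and 1 spleen had been measured on Affymetrix mouse arrays, 1 per sample. The deposited log2 values per probe set are the authors' RMA output from the affy package, per the submitters' processing notes, with versions not given in the sources used here. Arrays have no read depth, so that their number limits the precision.

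Of 22690 probe sets, 64 were controls and 20380 had a single symbol (691 had several, 1555 none), of which 20351 matched the GRCm38.p6 annotation by Entrez identifier. The probe set with the highest mean stood for each of 12393 genes, and 8721 genes with at least 1 array above the median of its set were kept. Slopes on Myc, the G2/M score and the stage score, and the spleen difference, were fitted over all kept genes with limma 3.58.1 in R 4.3.3 (eBayes with an intensity trend, two-sided, Benjamini-Hochberg, threshold 0.05), with the set as a covariate. Myc was left out of fits that hold it. Intervals are 1.96 SE either side. A score is the mean of a list after centring on the lymphomas of a set. Permutations were two-sided and within sets. The pipeline was tested on simulated data. Motifs were counted by exact match.

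The 9 genes, the lists, the tests and most alternatives were chosen with earlier results of these data known. Named besides the 9 genes were the 10 genes with the highest r to their mean, the nearest gene to each, and up to 3 genes of each chaperone list with the largest limma statistic for Myc. The alternatives concerned the filter, the probe set, the scaling, the eBayes settings, array weights, covariates, ranks and samples left out.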

Additional observations from a re-analysis of the deposited data

How the results depend on the processing

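Precision was limited by 43 lymphomas, by 7 of them in set 2 and by the single spleen. Of the 9 genes, the count rising with Myc was 4 to 6 under the alternatives tried, leave-one-out included, but those named next. The count was 1 with the scores of T cells and macrophages held and 0 in set 2 alone. It was 2 without lymphomas 30 and 39, and 3 with the G2/M score held. Without the set as a covariate it was 9, against 46.6% of all genes, whose median slope was then 0.19. The count rising with the G2/M score (6) became 1 with the T cell and macrophage scores, against 4.97% of all genes. Without the set it became 1, against 12.3%, and in set 2 alone 0, against 0.0115%. With Myc held it became 2, against 13.9%, and leaving out 1 lymphoma 4 to 6. The count falling with the stage score (0) became 1 with mean probe sets, quantile scaling or the 3' minus 5' covariate. The shares of all genes were then 17.5%, 16.2% and 17.8%. The stage count became 1 with the 2 farthest lymphomas left out, against 17.7%, and 3 without lymphomas 9, 13, 32 and 40, against 22.9%. Leaving out 1 lymphoma it was 0 to 2, and the 2 came without lymphoma 13, against 21.8%. The count lower in the spleen (4) became 7 with equal column medians, 8 with array weights, 0 without the set, and 4 to 6 leaving out 1 lymphoma. It became 2 with Myc held and 8 with the G2/M score held, fits chosen after seeing the data. Cct4 turned on Myc with the T cell and macrophage scores (-0.0129), without the 2 farthest (-0.00857) and with the G2/M score (-0.00328). Cct7 turned with quantile scaling (-0.0211), array weights (-0.0105), the T cell and macrophage scores (-0.0874), without lymphomas 9, 13, 32 and 40 (-0.00834), in set 1 (-0.00927), without the 2 farthest (-0.0380), with the G2/M score (-0.0440) and for some single lymphomas left out (-0.0297 to 0.0143). Among the other named genes Tbcb (0.0728) and Tubg1 (0.141) turned without the set, Tbcd (-0.0356), Hspb1 (0.42), Hspa1b (0.00123) and Hspa1a (0.147) with the T cell and macrophage scores, Hspa4 with mean probe sets (-0.102) and the G2/M score (-0.00945), and 9130401M01Rik without the 2 farthest (-0.0286). On the stage score, none of these called, Tcp1, Cct2, Cct3, Cct4 and Hspd1 turned with the T cell and macrophage scores (0.0164, 0.0196, 0.0142, 0.0206 and 0.00606). Tcp1, Cct2, Cct7 and Hspd1 turned in set 2 alone (0.0103, 0.00552, 0.0202 and 0.00795), and Cct2 and Hspd1 with Myc held (0.000969 and 0.00877). Without the set the spleen difference turned for Tcp1 (0.34), Cct3 (0.0031), Cct4 (0.0864), Cct5 (0.34), Cct7 (0.33) and Hspd1 (0.32), since set 2 values lie higher. The cause of the other turns was not tested. Depth does not apply to arrays.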
